A study of Mus musculus with 2 samples.

Results

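The loci described here are places in the mouse genome where long reads of adrenal gland RNA ran on the strand opposite an annotated gene, and did so in both libraries. A locus was kept where read models of the class Antisense, merged by their gene identifier, overlapped such a locus of the other library on the same strand with 5 or more reads in each library. Chromosomes 1 to 19, X and Y were used, and the ribosomal RNA repeat on chromosome 17 was left out. The rule gave 463 loci, out of 8634 Antisense loci in replicate 1 and 17638 in replicate 2. The loci were thus chosen by their reads and their overlap, so that they were read in both libraries is no result.

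The RNA came from adrenal gland of male B6CASTF1/J mice, a first-generation hybrid of the B6 and CAST strains, at an age of 10 days. There was 1 group with 2 biological replicates, no treatment and no genetic change. Per the labels the molecule was total RNA, spike-in RNAs were added, and replicate 2 started from 1 µg. The labels describe both libraries with 1 donor, and whether the replicates are separate animals is unclear. The p-values below cover counting error of reads alone and no spread between animals or libraries. The defining genes of adrenal cortex (10 of 10) and of chromaffin medulla (9 of 9) were read in both libraries. Their summed levels were 35240 and 22800 counts per 1000000 reads on annotated genes (CPM) for cortex in replicates 1 and 2, and 13120 and 7023 CPM for medulla. The 6 liver genes of the marker lists summed to 16560 and 43710 CPM and the 5 brown fat genes to 8106 and 9811 CPM. Depth was 927914 and 1303420 reads on annotated genes.

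An antisense RNA runs on the strand opposite the gene it overlaps. Natural antisense transcripts can start near the promoter of their partner and run away from it (head to head), enter it from beyond its end (tail to tail), or lie within it. Some act on their partner, as Airn does at the imprinted Igf2r locus, and many have no known role. Long reads give the strand, the introns and both ends of 1 molecule at a time, so the ends and the splicing of such a locus can be read beside its level.

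The bases at the ends of some of the loci are shown first, since later results refer to them. The 8 windows below hold 3′ ends from among the 20 most-read loci. Each end lay off any annotated exon boundary in replicate 1 and within exons of the GENCODE M21 transcripts, from which the sequence was read (genome build mm10). Each is written 5′ to 3′ on the antisense strand, with the last 10 bases of the locus in lower case and the 20 bases after its end in capitals.
Sept2 (replicate 1, chr1:93507838-93507867, minus strand): aaaaaaaaacCCCAACCAAACAAAAAACAA
2900097C17Rik (replicate 1, chr2:156391505-156391534, plus strand): cacaaaatgtAAAAAAAAAAAAAAAAAAAA
Gnb1 (replicate 1, chr4:155557942-155557971, minus strand): caaagtcttgCTACAAATGACTTATATTTA
Tacc1 (replicate 1, chr8:25158024-25158053, plus strand): agattaaggcAAAAAAAAAAAAAAAAAAAA
Cavin1 (replicate 1, chr11:100958465-100958494, plus strand): ccggtttgttTAAAAAAAAAAAAAAAAGCC
Nucks1 (replicate 1, chr1:131931567-131931596, minus strand): aatggttttaAGAGCCAGGCGGTGGTGGTG
Zkscan1 (replicate 1, chr5:138102810-138102839, minus strand): tttctctgagAAATAAAACAAATAAAAAAA
Pdp2 (replicate 1, chr8:104595508-104595537, minus strand): actgggtctcAGGAGATCCTGAAGTTCTTT
In 5 of these 8 windows, 12 or more of the 20 bases after the end were adenine. Tacc1 and 2900097C17Rik had adenine at all 20 positions, and Cavin1 had 16. At Sept2 a run of adenines also stood just before the last base of the locus.

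The 8 windows below hold 5′ ends from among the same 20 loci, chosen in the same way in replicate 1, with the 5 bases just before the first base of the locus in capitals and 10 bases before these and 15 after them in lower case.
Sept2 (replicate 1, chr1:93509264-93509293, minus strand): agcaaatgtaTTTTTcctcattaaatttat
Kcnk3 (replicate 1, chr5:30623932-30623961, minus strand): aattttttttTTTTTacctgttttcctctt
Nfia (replicate 1, chr4:98112760-98112789, minus strand): ctggggggggGGGGCggggagggtgtgaac
Nampt (replicate 1, chr12:32824146-32824175, minus strand): gcaatatatgGGGGAaaaaagcaaaagtta
Zkscan1 (replicate 1, chr5:138105761-138105790, minus strand): catatacataGTTATggggggggggttgtt
Ssr1 (replicate 1, chr13:37973753-37973782, plus strand): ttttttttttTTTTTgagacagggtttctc
Pdp2 (replicate 1, chr8:104597437-104597466, minus strand): ttttttgtacAAGGGtctcacgtatctctt
Zbtb38 (replicate 1, chr9:96683692-96683721, plus strand): tttttttttgCCTACcccaaaccacactaa
A triplet of guanines (GGG) stood in the capitals of Nfia, Nampt and Pdp2, 3 of the 8 windows.

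Where the 3′ end lay off annotated exon boundaries, most of the bases after it were adenine. In replicate 1, 123 loci had a 3′ end off annotated boundaries with a readable window, and 74.3% ± 28.2 (SD over windows) of the 20 bases after it were adenine. In replicate 2 the value was 73.0% ± 30.4 over 129 windows. A window with 12 or more adenines followed 94 of 123 such ends (76.4%) in replicate 1 and 94 of 129 (72.9%) in replicate 2. Ends on a boundary differed from these: 31.4% and 32.2% of the bases after them were adenine, and 10 of 113 (8.85%) and 11 of 115 (9.57%) had 12 or more. After the 5′ ends, the same count was 5 of 118 windows and 11 of 128. Adenine stood at 8.94% and 6.98% of windows at the last base of the locus and at 72.4% and 72.1% at the base after it. The ends off boundaries of the 4136 Antisense loci that overlapped between libraries but had fewer reads gave 76.4% and 72.2% of windows with 12 or more adenines, so the property was not particular to the loci with more reads. The windows could be read only where the end lay in an exon, and intronic ends were not analysed here.

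**Figure D1:**
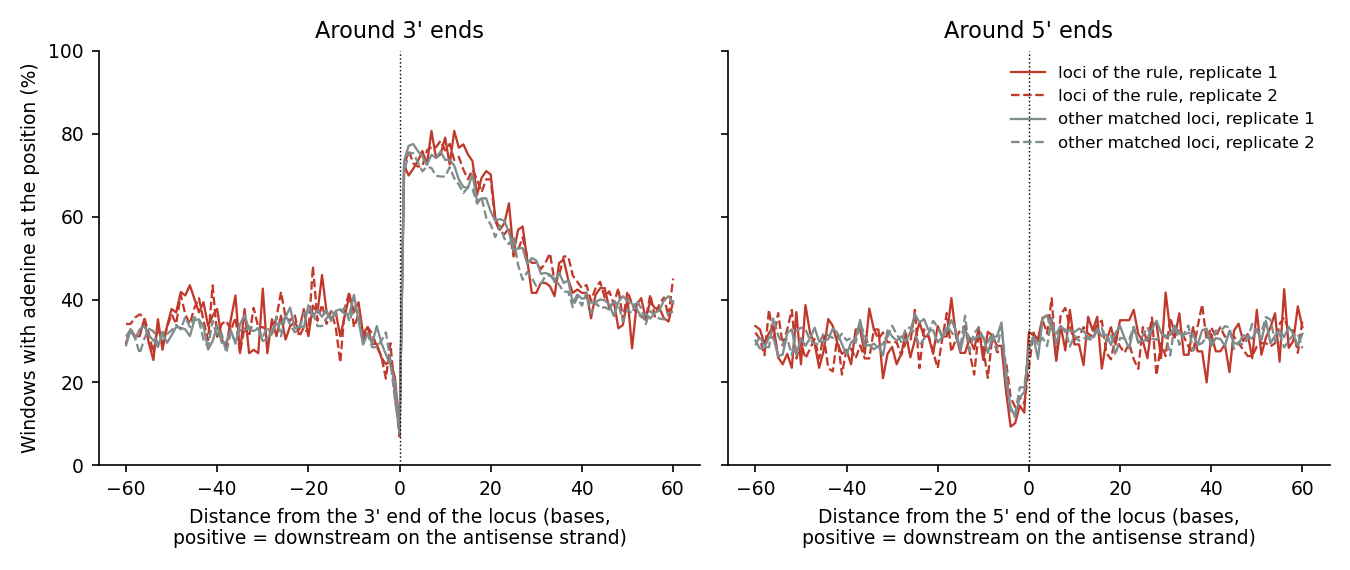
Percentage of windows with adenine at each position from 60 bases before to 60 bases after the 3′ ends (left) and 5′ ends (right) of the loci, on the antisense strand, for the loci of the rule and the other matched loci in each library; ends on annotated exon boundaries are left out. The curves step from 8.94% and 6.98% at the last base of the loci to 72.4% and 72.1% at the next base and return to 41.6% and 42.8% at 40 bases, and no such step is seen at 5′ ends.

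The bases before 5′ ends off annotated boundaries were rich in guanine. GGG lay within the 5 bases before the end in 73 of 118 windows (61.9%) in replicate 1 and 64 of 128 (50%) in replicate 2. In windows of the same length 40 bases downstream, GGG was found in 5 of 120 (4.17%) and 6 of 129 (4.65%). Only the antisense strand was searched. The other matched loci had GGG before the 5′ end in 54.1% and 53.9% of windows. Where both ends of a locus could be read, 32 of 63 loci in replicate 1 and 23 of 75 in replicate 2 had both the adenine-rich window and the GGG, and 7 and 15 had neither. The labels link to a wet-lab protocol that was not used here, and the part of adenine runs and guanine triplets in making these reads was not tested.

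A hexamer that usually precedes cleavage of mammalian messenger RNA (AATAAA or ATTAAA, searched on the antisense strand in the 40 bases before the 3′ end) was present at 9 of 122 ends (7.38%) in replicate 1 and 6 of 129 (4.65%) in replicate 2. Those were ends off annotated boundaries. In the 40 bases after the 5′ ends, where ends on boundaries were counted too, the hexamer was present in 7.57% of 251 windows and 5.76% of 243. Among 3′ ends off boundaries without the adenine-rich window, 3 of 28 and 3 of 35 had it.

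The 3′ ends were placed alike in both libraries and the 5′ ends were not. The 3′ end of the most-read model was the same base in 279 of 463 loci and lay within 10 bases in 335. The 5′ end was the same base in 109 and within 10 bases in 138, with a median distance of 537 bases. Many ends sat exactly on an annotated exon boundary of either strand: 165 and 156 of the 3′ ends and 173 and 154 of the 5′ ends in replicates 1 and 2. Whether reads were moved to such a boundary when models were built is not given in the sources used here. Among the 290 loci with both 3′ ends off a boundary, 199 (68.6%) had them within 10 bases, at a median distance of 1 base. Among the 256 loci with both 5′ ends off a boundary, 58 (22.7%) did, at a median distance of 546.5 bases. Both ends sat on boundaries in both libraries at 41 loci, so that the model had the extent of annotated exon ends. Models had a median length of 2072 bases in replicate 1 and 1625 bases in replicate 2, and 9 loci had a most-read model of under 10 bases in a library.

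**Figure D2:**
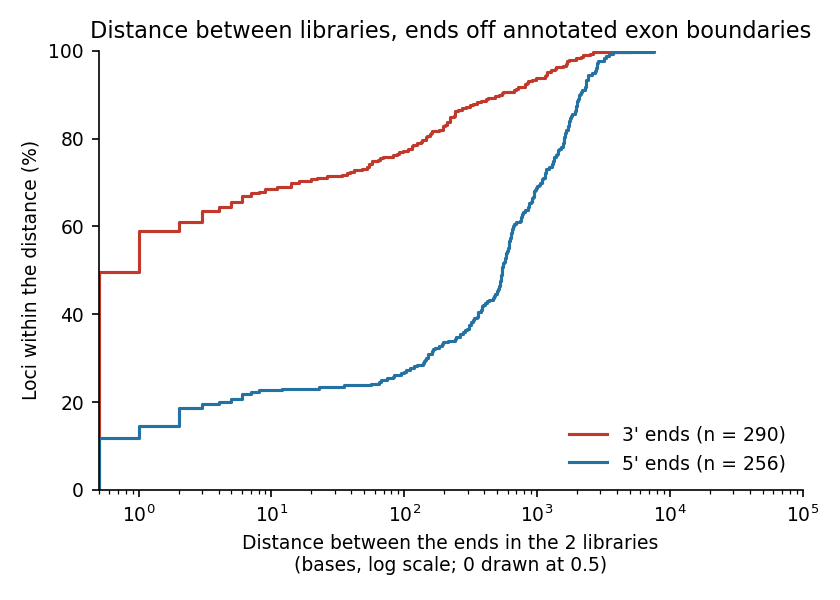
Cumulative percentage of loci (vertical axis) whose ends in the 2 libraries lie within a distance in bases (horizontal axis, log scale), for ends that lie off annotated exon boundaries in both libraries. The curve of 290 pairs of 3′ ends reaches 68.6% at 10 bases and that of 256 pairs of 5′ ends 22.7%.

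Most loci lay inside the opposite gene. The opposite gene was taken as the annotated gene on the other strand with the longest overlap, and it was found for 462 loci (449 different genes, 13 of them with 2 loci). It was protein coding for 450 loci. By start and end of that gene, 414 loci were within it, 25 were head to head, 23 were tail to tail and 1 had no annotated partner. Midpoints gathered at both ends of genes: 179 lay in the last 25% of the length of the gene and 129 in the first 25%, against 68 and 63 in the 25% steps between. With the start and end of the most-read annotated transcript in place of the gene, 318 loci were within it.

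By the part of the gene that most of its bases faced, 227 loci (49.1%) were intronic, 161 (34.8%) faced a 3′ untranslated region (3′ UTR), 29 were mostly outside the gene, 27 faced noncoding exons, 10 coding exons and 8 a 5′ UTR. Of the other matched loci, 73.0% were intronic and 13.9% faced a 3′ UTR. The loci were chosen for reads, so these shares are a description without a test. Loci opposite a 3′ UTR had a median of 10 reads in replicate 1 and 24 in replicate 2, and intronic loci 8 and 10. Of the 20 most-read loci, 14 faced a 3′ UTR and 3 were intronic.

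**Figure D3:**
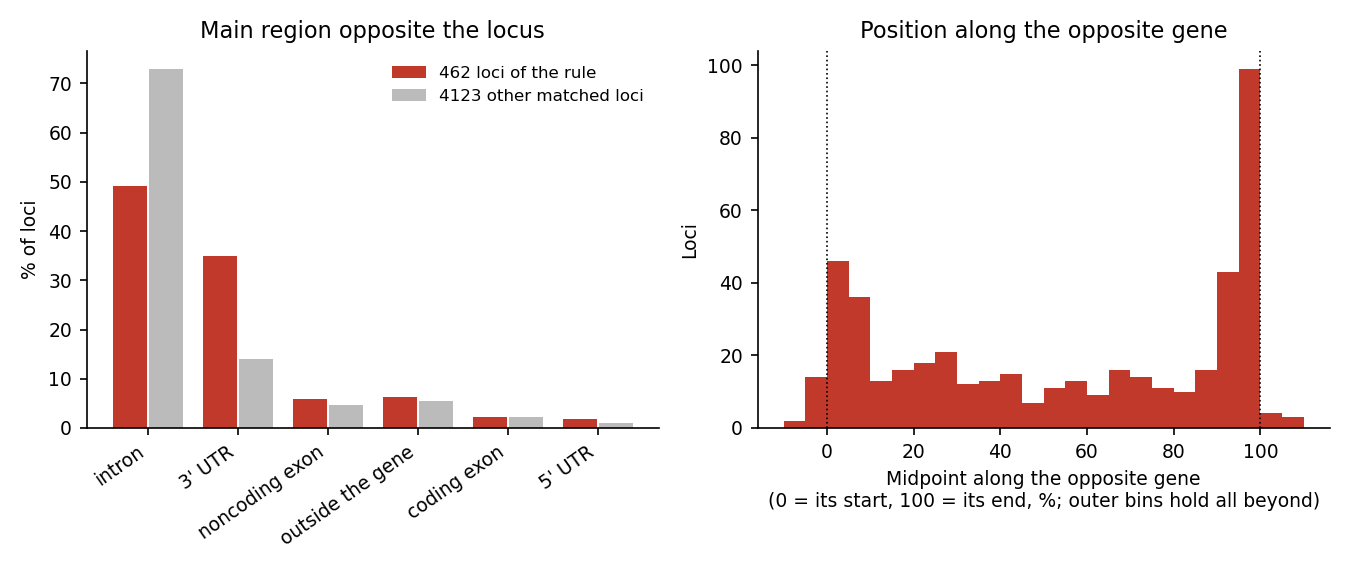
Left: percentage of loci by the part of the opposite gene that most of their bases face, for the 462 loci of the rule with an annotated partner and 4123 other matched loci. Right: number of loci by the position of their midpoint along the opposite gene, with its start at 0 and its end at 100%; 179 of the midpoints lie in the last 25% of the gene.

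The loci held 7815 reads in replicate 1 and 17583 in replicate 2, which was 36.6% and 33.7% of reads on all Antisense loci outside the ribosomal repeat. Per 1000000 reads on annotated genes this was 8422 and 13490. The median locus had 9 and 15 reads, and 276 of the 463 had under 10 reads in the smaller library, so a value of most single loci carries a wide counting error. At the edge of the rule, 102 loci had exactly 5 reads in the smaller library, with a median of 8 in the other, and 180 matched loci had 4, with a median of 7 in the other. Of all Antisense loci with 1 read, 43.2% of those in replicate 1 overlapped a locus of replicate 2, and 17.8% of those in replicate 2 overlapped a locus of replicate 1. With 10 or more reads, 98.3% and 84.1% did. As a scale, annotated noncoding genes of a fixed list, many of them antisense or imprinted, ranged from none to 204 reads. Meg3 had 42 and 204 reads, Gas5 47 and 92, Peg13 33 and 6, Hand2os1 13 and 19, Airn 7 and 16, Rian 3 and 8 and Kcnq1ot1 1 and 3. Mirg, Nespas, Snhg14 and Wt1os had none in replicate 1 and at most 3 in replicate 2. Tsix, Hotair and Hottip had none in either, which allows up to 3 reads, or 3.23 and 2.30 CPM.

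The antisense share was the number of antisense reads over antisense and sense reads of the opposite gene. Its median over the loci was 24.5% in replicate 1 and 27.2% in replicate 2, with quartiles of 8.22% and 50% in replicate 1 and 10.2% and 62.5% in replicate 2. Antisense reads outnumbered sense reads in both libraries at 103 loci, 56 of them opposite a 3′ UTR and 29 intronic. Loci opposite a 3′ UTR had a median share of 38.5% and 50%, and intronic loci 15.5% and 16.0%. At 5 loci the opposite gene had no read in either library: AC161438.1, Acnat1, Ccp110, Fam178b and Tnfrsf14, named because their sense count was 0. Across loci, antisense reads had a Spearman correlation with sense reads of 0.05 and 0.03 (n = 462; loci share the depth of a library), and the share in replicate 1 with that in replicate 2 of 0.85. These are descriptions over loci chosen by the antisense reads that enter both values.

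The spike-in RNAs give the rate at which reads of a known strand were placed on the opposite one. On spike-ins with sense reads, 0 of 15215 reads in replicate 1 were antisense, which allows up to 0.0197%, and 5 of 35160 in replicate 2 (0.0142%). A further 4 spike-ins had only antisense reads, 150 and 360 in all. Whether their entries are on the strand that was synthesised was not tested. With these counted, the spike-in rate was 0.976% (95% Clopper-Pearson interval 0.827 to 1.15%) and 1.03% (0.925 to 1.14%). The higher rate rests on these 4 spike-ins but for the 5 reads in replicate 2. It thus mixes entries with only antisense reads and entries with almost none, and its interval does not cover the spread between spike-ins. It is a yardstick only, and whether strand error made the reads of a locus was not tested. On spike-ins with sense reads the rate was lower than the share of any locus. The lowest share was 0.183% in replicate 1 and 0.211% in replicate 2. Of the 463 loci, 416 had a 95% interval of the share above the higher rate in both libraries. At Hadhb, Uqcrc1 and Pkm the interval lay at or below it in both, for example 6 antisense reads beside 3276 sense reads of Uqcrc1, a subunit of respiratory complex III, in replicate 1. Amplified reads are not independent molecules, so these intervals hold counting error alone.

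Of the 20 loci with most reads in the smaller library, 19 are described, ordered by the known roles of the opposite genes, with no list or test behind that order. Opposite Ywhaz, a phosphoserine-binding adaptor protein, 170 and 351 reads gave shares of 57.2% and 68.2% at a tail-to-tail locus. Opposite Gnb1, a G protein beta subunit, 119 and 435 reads gave 24.4% and 53.1%. At Gnb1, antisense reads outnumbered sense reads in replicate 2 only. Camk2b, a subunit of calmodulin-dependent kinase, had an intronic locus with 131 and 139 reads and shares of 84.0% and 83.7%, nearly equal in both libraries. Opposite Ptp4a1, a tyrosine phosphatase, an intronic locus had 99 and 132 reads and shares of 14.3% and 20.9%.

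Kcnk3 encodes a background potassium channel that sets the membrane potential of adrenal cortex cells. Its 3′ UTR faced 156 and 261 antisense reads, beside 1767 and 1058 sense reads. The share was 8.11% in replicate 1 and 19.8% in replicate 2, and antisense stayed the minority strand in both.

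Opposite Sept2, a filament-forming septin, there were 317 and 282 antisense reads against 45 and 43 sense reads, with shares of 87.6% and 86.8%, and the level of the locus was 279 ± 88.6 CPM (SD, n = 2). Opposite Actb, which encodes beta-actin, there were 147 reads in replicate 1 and 2093 in replicate 2, beside 1092 and 1702 sense reads. The Actb locus lay tail to tail, from 142901931 to 142903654 on the plus strand of chromosome 5, mostly beyond the end of the gene. That extent was the most-read model of replicate 2 (1724 bases). In replicate 1 the most-read model ran from 142903234 to 142903654 (421 bases), inside the gene. The level of the locus, 882 ± 1023 CPM, had an SD larger than its mean. Opposite Cavin1, a coat protein of caveolae, 77 and 396 reads gave shares of 41.9% and 72.5%. Tacc1, a coiled-coil protein of the centrosome, had 96 and 189 reads and shares of 73.9% and 78.8%. At Ssr1, a subunit of the translocon-associated complex of the endoplasmic reticulum, 54 and 130 reads gave 27.8% and 43.9%.

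Opposite the 3′ UTR of Nfia, a nuclear factor I protein, 269 reads in replicate 1 and 100 in replicate 2 gave shares of 92.4% and 70.4%, and this locus was the one of the 20 with the largest fall from replicate 1 to 2. Another locus in the same 3′ UTR of Nfia, outside the 20, had 32 and 60 reads and shares of 59.3% and 58.8%, nearly equal in both libraries. The zinc finger genes Zkscan1 (58 and 81 reads) and Zbtb38 (54 and 47) had shares of 95.1% and 95.3%, and 93.1% and 75.8%. Their sense strands had at most 4 and 15 reads in a library. Nampt, an enzyme of NAD salvage, faced 70 and 105 reads (34.5% and 39.9%), and Pdp2, a phosphatase that activates pyruvate dehydrogenase, 92 and 52 (83.6% and 76.5%). Nucks1 and Cdv3 faced 69 and 96, and 64 and 322 reads. The noncoding genes Tmem250-ps (215 and 303 reads, 99.1% and 91.0%) and 2900097C17Rik (166 and 261 reads, 69.5% and 77.9%) were also among the 20, and both loci faced mainly noncoding exons.

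**Figure D4:**
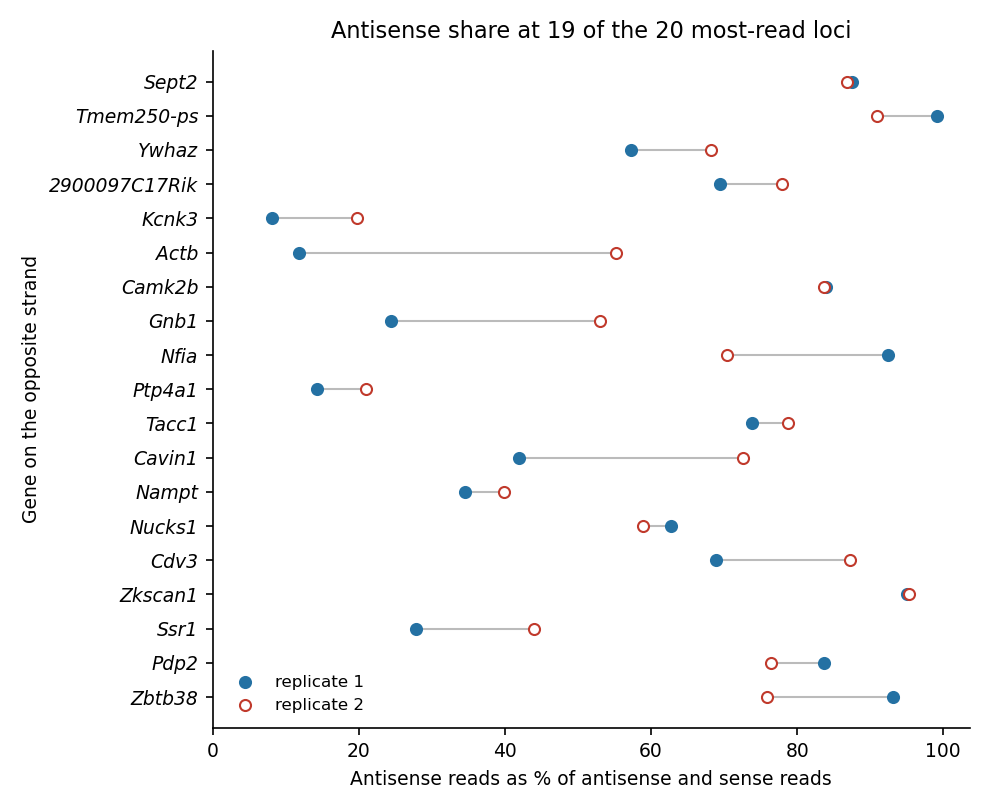
Antisense reads as a percentage of antisense and sense reads (horizontal axis) at 19 of the 20 loci with most reads in the smaller library, named by the opposite gene; filled points are replicate 1, open points replicate 2. Zkscan1 sits at 95.1% and 95.3%, while Actb moves from 11.9% to 55.2%.

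Splicing was rare among the loci. Only 13 of 463 had any read on a model with 2 or more exons, and 12 (2.59%) had 50% or more of their reads on such models, against 6.09% of the other matched loci. At 10 loci an intron chain was the same in both libraries. These introns were nearly all introns of the opposite gene: of 19 introns in the spliced models of replicate 1, 17 had the start and end of an annotated intron of the other strand, and of 17 in replicate 2, 16 did. None had those of an annotated intron of their own strand in either library. The bases at these splice sites, which show the strand of an intron, were not analysed here.

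The locus opposite Crebbp, a histone acetyltransferase, was the clearest case, with 6 exons and 5 introns that all had the coordinates of Crebbp introns. It had 47 reads in replicate 1 and 17 in replicate 2, beside 7 and 15 sense reads. Opposite Nr2f2, the nuclear receptor COUP-TFII, both introns of a 3-exon model were those of the gene. The locus had 20 and 61 antisense reads, 20 and 42 of them on that model, beside 54 and 75 sense reads. Mbnl1 (25 and 47 reads, 13 and 47 of them on the spliced model), a splicing regulator, shared an intron of 65789 bases. The same held for the single introns opposite Prpf38b (18 and 11 reads), Tshz1 (10 and 33), Bcl2l1 (10 and 29, with 5 and 29 spliced), Igf1r (6 and 32), Lyrm4 (5 and 10) and Carmil1 (7 and 5). These genes code for a splicing factor, a zinc finger factor, an inhibitor of apoptosis, a growth factor receptor, an iron-sulfur cluster assembly factor and an actin regulator.

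The 25 head-to-head loci had a median of 9 and 12 reads, where loci within the gene had 9 and 14.5, and their 5′ ends lay from 0 to 2450 bases inside the opposite gene, with medians of 475 and 526 bases. All 25 began at or inside the start of the gene and ran out across it by the definition of head to head. That no distance was negative largely follows from that definition as well. Slc25a3, the mitochondrial phosphate carrier, had the most replicate 1 reads of the 25 loci, 71 and 29, at shares of 6.39% and 1.67%. Over all positions, 21 loci had a 5′ end within 1000 bases of the start of the gene in both libraries, and 18 of these were head to head. A RefSeq promoter window (250 bases before to 50 after the start, GRCm38.p6) was matched for 17 of the 25, and the most-read models of both libraries covered it whole at 14. The windows held a median of 31 CG dinucleotides (lowest 2, highest 54), beside 7 over all 32851 windows of the table, of which 10.6% had 31 or more. The windows of the table were not limited to genes read in this tissue. Whether the higher count is particular to head-to-head loci was not tested. Some matched windows lay away from the GENCODE start, that of Gm26944 by 2576 bases. The 250 bases upstream of the start are shown here, 5′ to 3′ on the strand of the gene with CG in capitals, for Ccnl2, a cyclin linked to splicing, whose locus had 9 and 12 reads, and Neo1, a netrin receptor with the most CG, whose locus had 5 and 6.
Ccnl2 promoter (chr4:155812239-155812488, plus strand): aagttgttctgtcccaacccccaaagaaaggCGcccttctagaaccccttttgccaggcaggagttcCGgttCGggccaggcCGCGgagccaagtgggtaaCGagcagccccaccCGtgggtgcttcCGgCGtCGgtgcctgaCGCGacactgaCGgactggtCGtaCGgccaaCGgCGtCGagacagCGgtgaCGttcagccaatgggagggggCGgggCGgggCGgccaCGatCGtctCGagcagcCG
Neo1 promoter (chr9:59036442-59036691, minus strand): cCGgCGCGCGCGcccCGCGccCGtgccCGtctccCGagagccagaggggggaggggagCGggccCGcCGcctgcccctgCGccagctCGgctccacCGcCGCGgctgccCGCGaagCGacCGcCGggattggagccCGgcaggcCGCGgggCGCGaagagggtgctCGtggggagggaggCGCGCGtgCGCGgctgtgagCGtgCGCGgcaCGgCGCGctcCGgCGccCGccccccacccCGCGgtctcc

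Tail-to-tail loci had a median of 14 and 33 reads and a median share of 38.9% and 50%. They included Ywhaz, Actb, Cavin1, Zbtb38, Fdx1 and Nr5a1 among those named here. An annotated gene of the same strand as the locus ended within 5000 bases upstream of 68 of the 463 loci (14.7%) and 9.72% of the other matched loci, and within 1000 bases of 17. At 12 loci an annotated gene overlapped on the same strand, and at 22 a RefSeq gene did. The RefSeq noncoding gene Gm38733 overlapped the Actb locus in this way.

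Of the fixed lists of opposite genes, steroid synthesis and cholesterol had loci at 5 of 27 genes with 10 or more reads (18.5%). The share was 3.48% of all 11650 such genes and 5.82% of the 1805 genes that had at least 100 reads per library. Genes were not matched for depth beyond that minimum, and some of the list had far more reads. The lists were chosen with earlier results of these data known, and the difference was not tested. Star, which carries cholesterol into mitochondria, faced 55 and 25 intronic antisense reads beside 4075 and 3891 sense reads, a share of 1.33% and 0.638%. Fdx1, the ferredoxin that supplies electrons to mitochondrial P450 enzymes, had an intronic locus with 38 and 30 reads and a tail-to-tail locus with 14 and 38. The Fdx1 shares ran from 1.32 to 3.51%, beside 1045 and 1931 sense reads. Soat1, the enzyme that esterifies cholesterol for storage, had 2 loci in its 3′ UTR, with 14 and 52 reads and with 11 and 37 reads. Their shares were 5.69% and 27.8%, and 4.53% and 21.5%, higher in replicate 2 for both. Nr5a1, a transcription factor needed to form the adrenal cortex, faced 10 and 14 reads (2.19% and 2.58%), and Scarb1, the receptor for high-density lipoprotein, 5 and 11 (0.408% and 0.710%). The 95% interval of the Star share in replicate 2 (0.414 to 0.941%) lay below the higher spike-in rate. Both Scarb1 shares were also under that rate (0.976% and 1.03%) as values. The shares of Fdx1, Soat1 and Nr5a1 were above it in both libraries as values, without regard to their intervals.

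No locus lay opposite any of the 20 chromaffin genes with 10 or more reads or the 8 immediate early genes. Over all genes with 10 or more reads 3.48% had a locus, so lists this short can hold none without differing from other genes. Of 18 imprinted genes 1 had a locus: Ube3a, the ubiquitin ligase that neurons express from the maternal copy, with 11 and 31 reads at shares of 14.3% and 20.1%. It faced the 3′ UTR, and the host gene Snhg14, whose far end is the known antisense RNA of Ube3a, overlapped it on the same strand. Reads assigned to Snhg14 itself numbered 0 and 3. Among developmental transcription factors 2 of 20 had a locus, Nr2f2 among them.

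Reads of 109 of the 463 loci (23.5%) differed between the libraries, where 34.6% of all 12585 genes and matched loci did. The test was Fisher's exact test of the reads of a feature against all other reads, two-sided, at a Benjamini-Hochberg adjusted p of 0.05. Higher in replicate 2 were 87 loci (18.8%; all features 13.7%) and lower 22 (4.75%; all features 20.8%). The loci had a median log2 ratio of -0.01 and all features of -0.23. The split over all features depended on the scaling, with 39.7% of calls higher in replicate 2 here and 61% with TMM factors. At such depth a locus with few reads could pass only with a large ratio. The rule asked for 5 or more reads in each library, and the other features needed 10 over both. Uneven loci were thus left out before the test, and the percentages for loci and all features are not like for like.

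Actb had the largest ratio among the 20 most-read loci, 3.34 on the log2 scale, with reads higher in replicate 2. Cavin1 (1.86), Cdv3 (1.83) and Gnb1 (1.38) followed, with adjusted p by the same exact test of 1.7e-30, 2.67e-24 and 7.7e-22. Nfia fell by 1.91 (adjusted p by the exact test 3.21e-32) and Pdp2 fell by 1.31 (1.08e-06). The Nfia and Pdp2 loci were the lowest of the 20. Over all loci, the largest ratio was that of a locus in the 3′ UTR of Plin1, the lipid droplet coat protein of fat cells, with 18 and 387 reads (log2 ratio 3.90), named after its values were seen. Sense reads of Plin1 were 464 and 673, and the brown fat markers were 8106 and 9811 CPM; their part in this difference was not tested. Of the steroid genes, Star fell by 1.61 and the Soat1 locus nearer the end of the gene rose by 1.37 (adjusted p by the exact test 1.05e-05 and 0.00315), in libraries whose cortex markers were 35240 and 22800 CPM; in whole tissue, fewer cells of a type and less RNA per cell cannot be told apart. These ratios compare 2 libraries and not conditions.

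The antisense share differed between libraries at 99 of the 462 loci tested (21.4%), where 25.7% of all 931 matched loci with 10 or more antisense reads and a partner did, by Fisher's exact test of antisense against sense reads with the same adjustment. Here too the rule had left out loci with under 5 reads in 1 library, so these percentages are not like for like. The share was higher in replicate 2 at 71 loci (15.4%; all matched loci 21.4%) and lower at 28 (6.06%; all 4.30%). At Actb it rose from 11.9% to 55.2% and at Gnb1 from 24.4% to 53.1%. At Nfia it fell from 92.4% to 70.4%, a call that rested on all reads of the gene: with annotated transcripts only, the log2 odds ratio was 0.051. At the other Nfia locus it did not pass the test (log2 odds ratio -0.02, adjusted p by the exact test 1), and the log2 ratio of its reads was 0.41 (adjusted p 0.351 by the exact test). At Sept2, Camk2b, Nampt, Nucks1 and Zkscan1 the share did not pass the test.

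**Figure D5:**
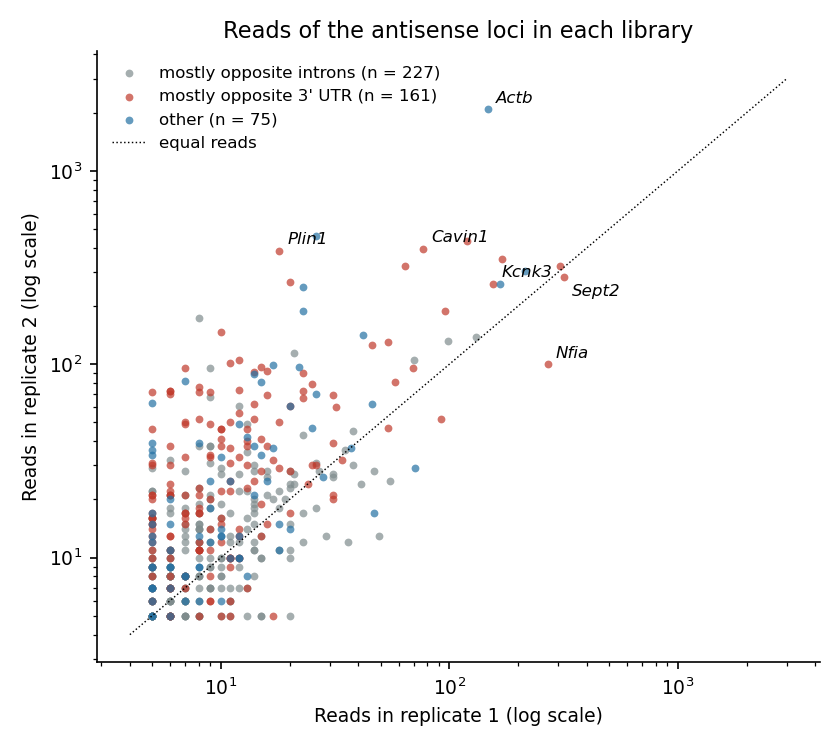
Antisense reads of the 463 loci in replicate 1 (horizontal axis) and replicate 2 (vertical axis), both on log scales, coloured by the part of the opposite gene that most of the locus faces; the dotted line marks equal reads. Actb, at 147 and 2093 reads, and Plin1, at 18 and 387, lie far above the line and Nfia, at 269 and 100, below it.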

How the data were processed

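Long-read RNA sequencing of 2 adrenal gland libraries was used. The tables the authors deposited hold raw read counts of each transcript model in 1 library, with its exons and length in bases (other units); models are those of GENCODE M21 on mm10 and models added by TALON, per the file headers. No source used here names the aligner or any version. Antisense models were merged by gene identifier and matched between libraries as the text states; connected overlaps were counted as 1 locus. Gene lines in the annotation files were altered by added models, so the start and end of a gene were taken over its annotated transcripts. CPM used reads on annotated genes (927914 and 1303420). Fisher's exact tests (scipy 1.17.1) covered features with 10 or more reads over both libraries, with 0.5 reads added before log2, and recovered seeded changes in simulated counts. TMM (edgeR 4.0.16) and DESeq2 1.42.0 size factors were alternatives. Named loci were the 20 with most reads in the smaller library, 10 with an intron chain in both libraries and all opposite genes of the fixed lists; exceptions are stated, and results at some of these genes are not reported here. The loci and lists were chosen with earlier results of these data known. Promoters are from RefSeq GRCm38.p6.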

Additional observations from a re-analysis of the deposited data

How the results depend on the processing

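The number of loci followed the read minimum: 930 with 3 or more reads in each library and 185 with 10 or more. With a 50% overlap of the shorter locus it was 462, with exon overlap 463 and with overlapping loci of 1 library merged 484. Taken from 1 library alone, the loci with 5 or more reads numbered 665 to 1616, those within the gene 594 to 1484, head to head 44 to 57, tail to tail 22 to 39, with a 5′ end near the gene start 35 to 84 and mostly spliced 14 to 26. An alternative chosen after seeing the data left out loci whose 3′ end was followed by 12 or more adenines. It kept 304 loci within the gene, 25 head to head and 12 tail to tail. Loci without a readable window stayed in, and only 252 loci had one in either library. Loci with a 5′ end within 500 bases of the gene start numbered 11 and within 2000 bases 34. Counts of loci that differed between libraries in reads (101 to 123) or share (92 to 96) stayed within 1.5 times the values above under every scaling, filter, length and share alternative run. The Nfia share had a log2 odds ratio of 0.051 with annotated transcripts only, against -2.34. The Ywhaz read ratio was 0.10 after the median of genes of like length was taken off, and no longer passed the test; the cause was not tested. No paired analysis was possible because only 1 group was sequenced. Most loci had under 10 reads in the smaller library, which limits every value of a single locus.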
